A study of Arabidopsis thaliana with 4 samples.

Results

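The loci described here are entries of a gene-level expression table in which no gene is named. All entries with an empty gene name were taken, which gave 324 of 33538 entries, or 0.966%. The table compares Arabidopsis thaliana seedlings in air with seedlings given ethylene. Both groups were a srt1srt2 double mutant in the Col background, raised as dark-grown (etiolated) seedlings to an age of 3 days at 24 °C. Treatment lasted 4 hours, with hydrocarbon-free air for the first group and with that air plus 10 ppm ethylene for the second. SRT1 and SRT2 encode sirtuins, a class of histone deacetylase, and the title inside the deposited table speaks of srt1 only. Each group had 2 libraries of total RNA, and no wild type was analysed here. The authors deposited 1 pooled FPKM value per condition (fragments scaled by transcript length and by the number of mapped fragments), so no error bar over libraries can be given. The labels leave unsaid if each library had plants of its own, so the spread behind the authors' test may be technical.

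Genes of the ethylene response marked the treatment in this table. In the authors' deposited table, by Cuffdiff with Benjamini-Hochberg adjustment, ERF1, EBF2 and ERS2 each had a q of 0.000878. ERF1, a transcription factor of the ethylene pathway, was listed at 0 in air and at 9.07 FPKM in ethylene. The protochlorophyllide reductase PORA, a marker of dark-grown seedlings, stood at 397 FPKM in air and at 583 in ethylene. The mutated genes SRT1 (3.88 and 3.23 FPKM) and SRT2 (1.92 and 2.09) were low and were not called.

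A transcript assembler writes an entry wherever aligned reads pile up, whether or not an annotated gene lies there, so such entries can hold non-coding RNA, stray pieces of messenger RNA or reads that map to several places. Plant nuclear chromosomes also carry copies of chloroplast and mitochondrial DNA, and reads of an organelle can align to them. FPKM divides fragments by the effective length of a locus, the number of positions at which a fragment can lie, and this number becomes very small when a locus is hardly longer than a read.

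The loci lay on chromosomes 1 to 5, with 88, 57, 55, 39 and 85 of them in that order. Of the 324 loci, 53 were under 100 bases, 213 were 100 to 600 bases and 58 were over 600 bases. Lengths ran from 74 to 35145 bases, with a median of 205, and the commonest length was 75 bases, held by 32 loci. Beside the lower length limit, XLOC_008380 (99 bases) was listed at 0 in both conditions and XLOC_008409 (100 bases) at 0 in air and 96.7 FPKM in ethylene. Beside the upper limit, XLOC_015167 (594 bases) was at 15.4 and 13.7 FPKM in air and ethylene, and XLOC_027804 (605 bases) at 2.83 and 2.63.

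A few sequences with high FPKM values are shown in groups, as the plus strand of the RefSeq TAIR10.1 genome, since no strand could be inferred for these loci. In the first group are 2 loci with near-identical copies in an organelle genome. Capitals mark bases that differ from the organelle copy or lie beyond the match to it. XLOC_008405 lies at chr1:14196330-14196465 and XLOC_013961 at chr2:9711476-9711585.
XLOC_008405: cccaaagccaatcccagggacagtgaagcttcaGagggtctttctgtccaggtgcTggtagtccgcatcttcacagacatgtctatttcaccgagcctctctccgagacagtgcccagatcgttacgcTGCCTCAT
XLOC_013961: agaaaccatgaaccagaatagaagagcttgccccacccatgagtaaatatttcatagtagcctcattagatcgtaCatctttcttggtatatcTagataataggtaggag

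The second group are loci of exactly 75 bases, shown because they held the largest FPKM values that were listed at 0 in the other condition. The 4 called ones are given in lower case throughout. XLOC_008374 lies at chr1:739353-739427, XLOC_008413 at chr1:18061368-18061442, XLOC_013970 at chr2:13504099-13504173 and XLOC_013982 at chr2:19191672-19191746.
XLOC_008374: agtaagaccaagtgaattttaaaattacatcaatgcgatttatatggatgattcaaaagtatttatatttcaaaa
XLOC_008413: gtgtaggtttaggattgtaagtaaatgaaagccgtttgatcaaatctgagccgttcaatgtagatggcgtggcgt
XLOC_013970: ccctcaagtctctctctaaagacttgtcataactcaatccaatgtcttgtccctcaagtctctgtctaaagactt
XLOC_013982: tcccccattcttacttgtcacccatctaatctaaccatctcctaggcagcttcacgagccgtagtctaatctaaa

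The 75-base loci varied in base composition. Their GC content ran from 22.7% in XLOC_008374 to 56.0%, with a median of 37.3%, against 36.9% over all the loci. XLOC_013970 had 7 further near-identical copies in the genome, whereas XLOC_008374, XLOC_008413 and XLOC_013982 had none. A near-identical copy here is one of 95% identity or more over 80% or more of the locus. XLOC_008413 lay in an exon of AT1G48840, which encodes a protein of unknown function. The uncalled entry naming AT1G48840 had 15.6 FPKM in air against 16.8 in ethylene. XLOC_013982 lay in the protein-coding gene AT2G46710. The entry naming AT2G46710 was called lower, at 28.8 FPKM in ethylene against 44.3 in air, whereas XLOC_013982 was called higher. How these loci relate to transcripts of their genes was not tested. XLOC_008374 and XLOC_013970 overlapped no annotated gene.

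Against the RefSeq annotation, 118 of the 324 loci (36.4%) overlapped no annotated gene by at least 50% of the shorter of locus and gene. Protein-coding genes were overlapped by 97 loci (29.9%), of which 77 lay in exons, 10 in introns and 10 across both. Other non-coding RNA genes held 59 loci (18.2%), long or antisense RNA genes 39 (12.04%), pseudogenes 8 and small nucleolar RNA genes 3. Each locus was counted once, under the gene that shared the most bases with it. On this count no locus fell under a transfer RNA, small nuclear RNA, signal recognition particle RNA or microRNA gene. Such genes inside longer loci or longer genes would not show in this count. No locus overlapped an annotated ribosomal RNA gene.

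Differences between conditions varied with length. Of the loci above 0 in either condition, 34 of 36 under 100 bases (94.4%) were listed at 0 in the other condition, beside 75 of 200 (37.5%) at 100 to 600 bases and 5 of 58 (8.62%) over 600 bases. For entries that name a gene, the same shares were 4 of 6, 321 of 865 (37.1%) and 2426 of 24201 (10.02%). Under 100 bases, 15 loci were higher in ethylene and 21 lower. At 100 to 600 bases 93 were higher and 107 lower, and over 600 bases 34 were higher and 24 lower. The median of log2((ethylene FPKM + 1)/(air FPKM + 1)) was -9.38 under 100 bases, -0.12 at 100 to 600 bases and 0.11 over 600 bases. Entries that name a gene had medians of -3.03, -0.07 and 0.01 in the same length classes. This measure makes differences of low entries look smaller than they are. Of the named entries under 100 bases, 6 of 671 were above 0. Only 2 loci under 100 bases were above 0 in both conditions, and their median was 0.47. At 100 to 600 bases the median turned to 0.10 without loci listed at 0.

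**Figure D1:**
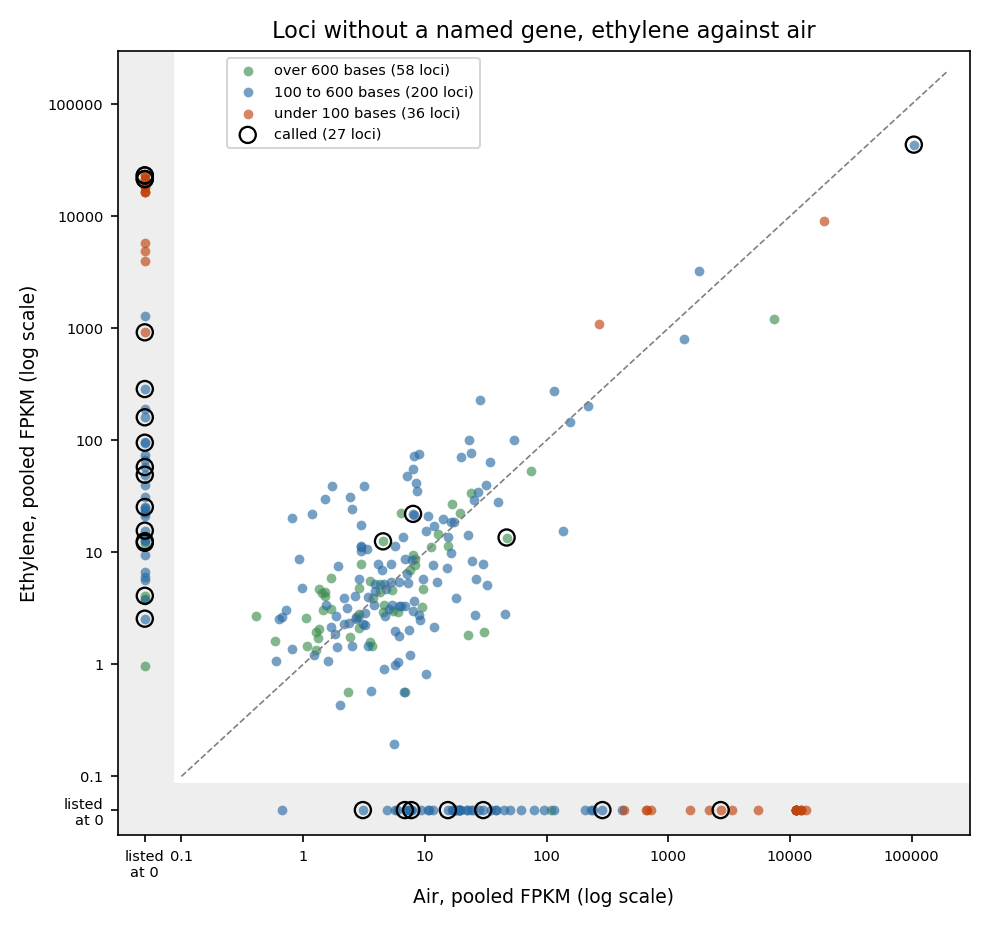
Each point is a locus without a named gene, with its pooled FPKM in air on the x axis and in ethylene on the y axis, both on log scales; grey strips hold values listed at 0, the dashed line marks equal values and rings mark the 27 called loci. The 36 loci under 100 bases (orange) sit almost all in the grey strips, 34 of them, while 53 of the 58 loci over 600 bases (green) were above 0 in both conditions.

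Above 0 in both conditions were 180 loci, with 97 higher in ethylene and 83 lower. Of these 180 loci, 90 differed by 2-fold or more, beside 15.8% of entries naming a gene that were above 0 in both. Those entries are longer: at 100 to 600 bases the shares were 52% of loci and 37.1% of entries naming a gene, and over 600 bases 43.4% and 15.2%. The wide scatter went in both directions, and the quartiles of the log2 difference were -0.71 and 0.88 around a median of 0.05.

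The authors' test called 27 of the 290 tested loci (9.31%) at a q of 0.05 or less, with 18 higher in ethylene and 9 lower. Over all 21076 tested entries of the table it called 11.3%, with 4.81% higher and 6.46% lower. The loci's own shares were 6.21% higher and 3.10% lower, so in both directions together they were not called more often than the background, while the shares by direction stood on opposite sides of it. Among calls, 16 were listed at 0 in air and 7 at 0 in ethylene, and 4 were above 0 in both conditions. Those 4 calls were 2.22% of the 180 tested loci above 0 in both, beside 11.04% of all such entries. Of tested loci listed at 0 in 1 condition, 23 of 110 (20.9%) were called, beside 83 of 331 (25.1%) of all such entries. Listed at 0 in 1 condition were 37.9% of the tested loci and 1.06% of tested entries that name a gene. These sets differ in length, with medians of 205 bases for all the loci and 2180 for all named entries. Among entries of 100 to 600 bases above 0 in either condition, tested or not, the shares were 37.5% of loci and 37.1% of named entries. Tested were 196 of these 200 loci and 609 of these 865 named entries, so these shares have another basis than those of tested entries. The deposited test statistic was also read as a standard normal value. Tested loci listed at 0 in 1 condition had no numeric statistic and kept their deposited p. Then 48 loci were called, 25 of them above 0 in both conditions, and the calls over all entries numbered 1317 in place of 2374. Some statistics were extreme beside the deposited Cuffdiff p, such as -1195 beside 0.259 at XLOC_008395. The loci were 1.38% of tested entries but 33.2% of those listed at 0 in 1 condition.

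XLOC_008405, the highest entry of the whole table in air, stood at 104132 FPKM in air and at 43548 in ethylene. The authors' deposited table gave it a q of 0.000878 by Cuffdiff with Benjamini-Hochberg adjustment, and it fell 2.39-fold. The locus lies in AT1G07017, annotated as a non-coding RNA on chromosome 1. It matched the chloroplast gene rrn23S, which encodes the large ribosomal RNA of the chloroplast, at 97.7% identity over 129 aligned positions, with 3 differences. All 271 entries of the chloroplast and mitochondrial genomes were listed at 0 in both conditions, and whether reads came from the nuclear or the chloroplast copy cannot be told apart. In bulk RNA, fewer cells of a type and less RNA per cell cannot be told apart either.

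XLOC_028077, a locus of 2088 bases in the non-coding RNA gene AT5G00580 (chr5:17045167-17047254), stood at 47.0 FPKM in air and at 13.6 in ethylene. It fell 3.47-fold, with a q of 0.000878 in the authors' deposited table by Cuffdiff with Benjamini-Hochberg adjustment. XLOC_024056, of 1110 bases in AT4G11547, which encodes a cysteine- and histidine-rich C1 domain protein, stood at 4.53 FPKM in air and at 12.5 in ethylene. It rose 2.76-fold, with a q of 0.0238 in the authors' deposited table by Cuffdiff with Benjamini-Hochberg adjustment. XLOC_013937, of 405 bases in the non-coding RNA gene AT2G04805, stood at 8.003 FPKM in air and at 22.02 in ethylene. It rose 2.75-fold, with a q of 0.0385 in the authors' deposited table by Cuffdiff with Benjamini-Hochberg adjustment. These were the calls of loci that were above 0 in both conditions.

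Values of the 75-base loci listed at 0 in 1 condition were multiples of a fixed step. The step was 1121 FPKM in air and 1652 in ethylene, and 21 values were 10 to 14 times the step, with no value farther than 3.91e-05 from a whole number of steps. Of the 32 loci of this length, 11 were above 0 in air only, 10 in ethylene only, 1 in both and 10 in neither. Of those above 0 in air only, 7 stood at 11210 FPKM, 3 at 12331 and 1, XLOC_033249, at 13452. Of those above 0 in ethylene only, 3 stood at 16518 FPKM, 2 at 18170, 1 at 19822, 2 at 21474 and 2 at 23126. The authors' test called the 4 loci of 13 or 14 steps in ethylene, which are the 4 printed above.

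In all, 46 loci were listed at 0 in 1 condition and at 100 FPKM or more in the other, 18 of them at 0 in air and 28 at 0 in ethylene. Of these 46, 34 were under 100 bases and 9 were called, beside 25.1% of all tested entries listed at 0 in 1 condition.

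The FPKM of 1 fragment was read at 30 lengths from 75 to 197 bases. It came from loci listed at 0 in 1 condition and without an inferred strand. At 75 bases it was the step. At other lengths, mostly with 1 locus per condition, the value was divided by a borrowed number of fragments. That number was the multiple of the 75-base loci with the same deposited Cuffdiff p. Loci with an inferred strand were left out, such as XLOC_002378 (214 bases), at 41.8 FPKM per fragment in air against 0.522 computed. The FPKM of 1 fragment became smaller with length. The 33 values lay within 0.000306% of those computed from an effective length. For it the fragment length had a mean of 200 and SD of 80 bases, and the shortest fragment was 72 bases. With a shortest fragment of 71 or 73 bases the largest deviation was 38.7% or 35.3%. On this scale, 1 fragment in a locus of 75 bases is worth 1667 times as much FPKM as in 1 of 200 bases, and 26180 times as much as in 1 of 600 bases.

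**Figure D2:**
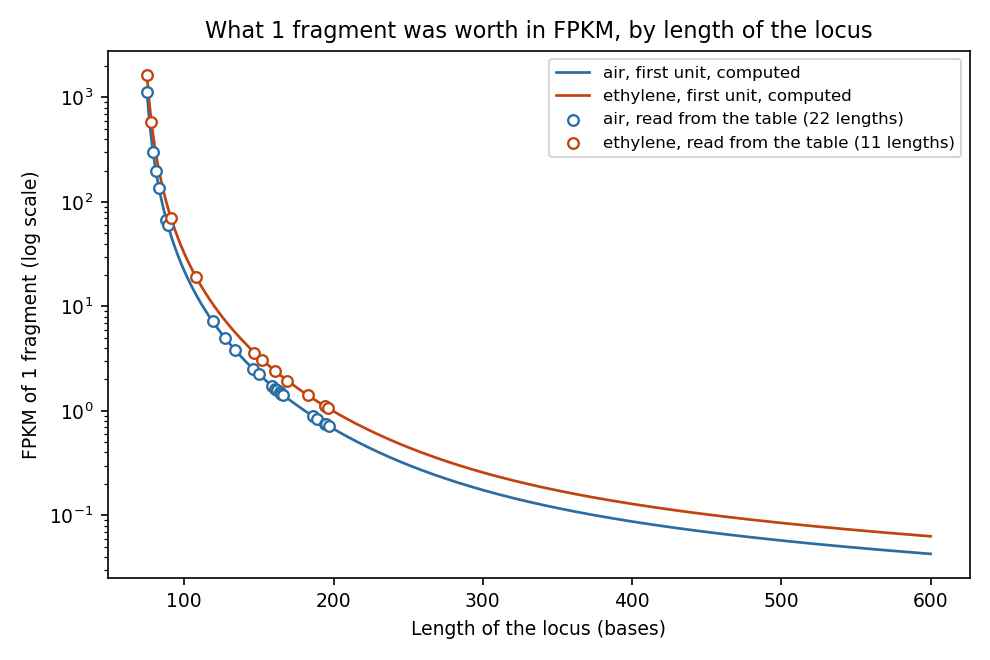
The FPKM of 1 fragment on a log y axis is plotted against locus length in bases for air (blue) and ethylene (orange). Lines are computed from the effective length. Open circles are the step at 75 bases and, at other lengths, values divided by a borrowed number of fragments. The circles lie on the lines from 75 bases, where the step is 1121 FPKM in air and 1652 in ethylene. At 197 bases, the longest length with a circle, 1 fragment is worth 0.713 FPKM in air.

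Strand was inferred from the order of entries on each chromosome. The last run of entries, 234 loci, named no gene and was taken as strandless. Dividing the FPKM of these 234 loci by the FPKM of 1 fragment gave fragment numbers. Each value was a whole number of fragments of 2 worths, called the first and the second unit here, with the second worth 1.839 times the first in air and 1.097 times in ethylene. In each condition the second worth was chosen as that at which most of the lowest of these values split. The splits counted next are thus not independent of that choice. All 159 air values and all 137 ethylene values of up to 120 weighted fragments, that is fragments counted in first units, split into whole numbers in exactly 1 way, whereas 6 of 104 and 8 of 105 such values of unspliced entries naming a gene did. Each condition had 2 libraries and 2 units. That the units are the libraries is not stated in the table and was not tested, and which library is which cannot be told. A resolved locus held between 1 and 187 fragments, with a median of 14. The upper end is bounded by the limit, since 10 air values and 8 ethylene values above it were left unresolved.

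High FPKM values rested on few fragments. Of the 34 strandless loci at 1000 FPKM or more in either condition, 32 were resolved, with 9 to 114 fragments. Among strandless loci of at most 600 bases, those under 100 bases held 60.04% of the FPKM but 0.713% of the weighted fragments in air, and 81.2% and 1.62% in ethylene. XLOC_008405 held most of these fragments. Without it, loci under 100 bases held 96.3% of the FPKM and 6.14% of the weighted fragments in air, and 96.7% and 6.71% in ethylene. The value of XLOC_008405 equals 29247 fragments of the first unit or 15904 of the second in air, and 8300 or 7564 in ethylene, so its number of fragments depends on the unit in which it is counted.

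The 75-base locus XLOC_008395, in the non-coding RNA gene AT1G06737, was the only locus of this length above 0 in both conditions, at 19057 FPKM in air and 9063 in ethylene. Its air value was 17 fragments of the first unit and 0 of the second, and its ethylene value 0 of the first and 5 of the second. The unit at 0 in each condition made the ranges of air and ethylene overlap. It was not called.

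Of the 96 resolved loci listed at 0 in 1 condition, 82 (85.4%) had fragments of 1 unit only. Above 0 in air only were 60 loci, of which 51 had 1 unit only, and above 0 in ethylene only were 36, of which 31 did. None of the 5 loci called lower in ethylene had 1 unit only, whereas 9 of the 13 called higher did. At 13 to 17 fragments, 3 of 11 loci above 0 in air only were called and 11 of 11 above 0 in ethylene only. At 10 to 12 fragments, the calls were 0 of 37 and 2 of 17.

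**Figure D3:**
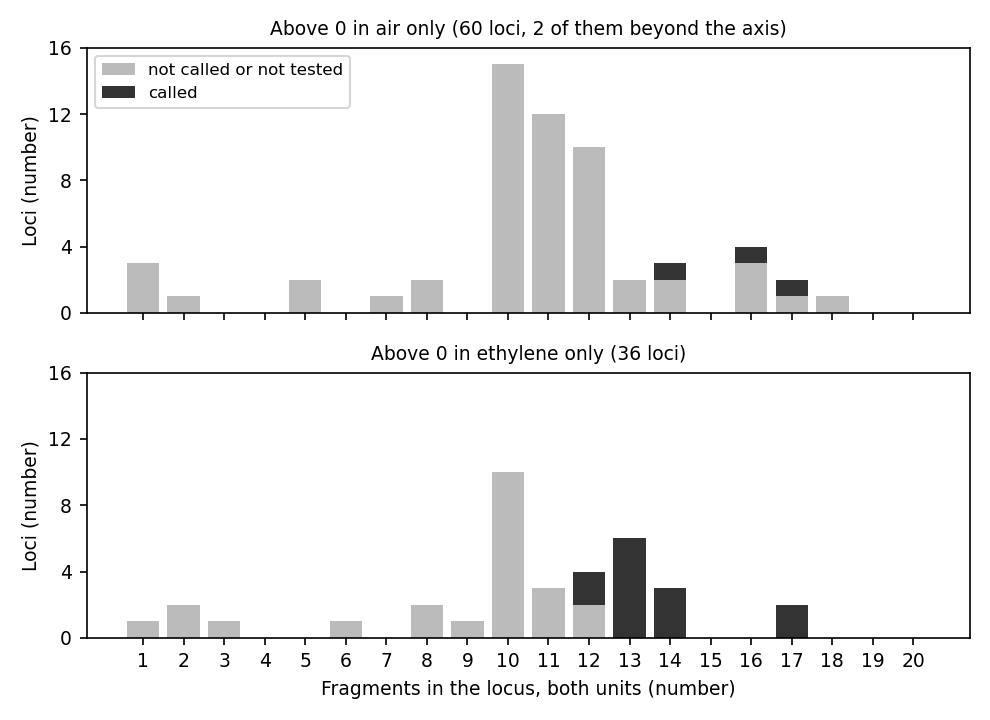
The number of resolved loci listed at 0 in 1 condition is plotted against their number of fragments, for loci above 0 in air only (upper panel, 60 loci) and in ethylene only (lower panel, 36 loci); black bars are called loci. Both panels peak at 10 fragments, and calls begin at 14 fragments in air and at 12 in ethylene.

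The loci called lower with fragments resolved were carried by both air units. XLOC_033223, in no annotated gene, held 53 fragments of the first air unit and 18 of the second (6.85 FPKM) and was listed at 0 in ethylene. XLOC_008420, in an intron of AT1G59780, which encodes an NB-ARC disease resistance protein, held 20 and 11 (3.10 FPKM). XLOC_008372, in the non-coding RNA gene AT1G08765, held 2 and 15 (30.2 FPKM). Both air units were above 0 at each of these loci, and neither ethylene unit was. XLOC_013943, which had a copy of 100% identity in the mitochondrial genome, held 14 and 2 fragments, and XLOC_020674, with a copy of 100% identity in the chloroplast genome, held 3 and 11.

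Of the 18 loci called higher, 13 were resolved and listed at 0 in air, and 9 of these were carried by 1 ethylene unit. XLOC_008374 and XLOC_008413 each held 14 fragments of the first unit and 0 of the second. XLOC_013970 and XLOC_013982 each held 13 and 0. XLOC_013957, in no annotated gene, held 17 and 0 (287 FPKM). One unit was thus at 0 in ethylene, as both were in air, so the ranges of the 2 conditions met at 0. Carried by both units were XLOC_013948, with 3 and 14 fragments (49.3 FPKM) and a copy of 100% identity in the mitochondrial genome, and XLOC_033213, with 5 and 7 (2.56 FPKM). In XLOC_025769, in the F-box-like gene AT4G15563, and in XLOC_033233 the units held 12 and 1 fragments.

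**Figure D4:**
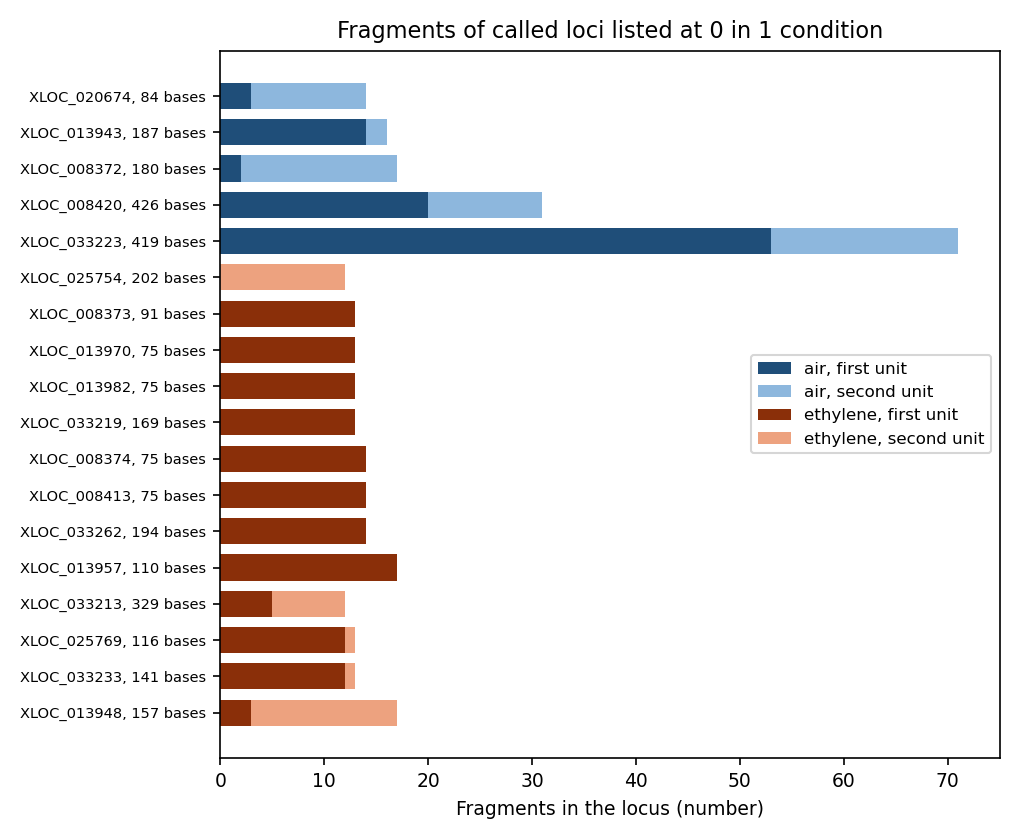
Bars give the number of fragments in each of the 18 resolved loci that were called and listed at 0 in 1 condition, stacked by condition and unit (blue for air, orange for ethylene, dark for the first unit). The 5 loci above 0 in air show both shades, while 9 of the 13 above 0 in ethylene show a single shade.

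Calls at loci with an inferred strand included both directions. XLOC_013537, placed on the minus strand and in the non-coding RNA gene AT2G09165, was at 288 FPKM in air and listed at 0 in ethylene. XLOC_016236, in AT3G44703, was listed at 0 in air and at 12.1 FPKM in ethylene. XLOC_027832, in an intron of AT5G38747, was likewise listed at 0 in air and at 95.1 FPKM in ethylene, and XLOC_031117, of 832 bases in no annotated gene, was at 4.09. Fragments were not resolved for these stranded loci.

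Among the 98 resolved loci above 0 in both conditions, fragments were weighted by the worth of their unit. Both ethylene values then exceeded both air values at 18, the reverse held at 17, and the values overlapped at 63. With 2 values per condition, such an order can arise without any difference, and this was not tested. None of these 35 loci without overlap was called, beside 11.3% of all tested entries, and 2 of them had an unadjusted Cuffdiff p of 0.05 or less in the authors' deposited table. XLOC_020656 held 14 and 10 fragments in the air units and 32 and 53 in the ethylene units, or 8.68 and 35.6 FPKM. XLOC_025768 held 0 and 1 against 11 and 11 fragments. XLOC_008407 went the other way, with 45 and 1 fragments in air and 0 and 1 in ethylene, and its air units differed from each other more than the second of them did from ethylene. Counted in first air units, 1 fragment of the second unit was worth 1.839 in air and 1.617 in ethylene, so this locus was separate by weight only.

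None of the 3 small nucleolar RNA loci and 8 pseudogene loci was called, beside 11.3% of all tested entries. Among tested entries naming a small nucleolar RNA gene, 2 of 20 were called. Loci this few cannot show a difference from those shares. An unadjusted Cuffdiff p of 0.05 or less in the authors' deposited table was held by 1 of the 3 former and 0 of the 8 latter. XLOC_033215, in the small nucleolar RNA gene AT5G02565, held the most fragments of the resolved loci, with 48 and 35 in air and 55 and 49 in ethylene (11.98 and 17.1 FPKM). Its neighbour XLOC_033216, in AT5G02575, stood at 11.6 FPKM in air and at 7.77 in ethylene. It held 28 and 22 fragments in the air units and 31 and 0 in the ethylene units, so its values overlapped. By pooled FPKM these neighbouring loci stood in opposite order, but that order did not hold across the units of XLOC_033216. Of the 8 pseudogene loci, 7 were higher in ethylene and 1 lower, with a median log2 difference of 1.14, and they shared only 4 spans: 3 loci had the span of 22994 bases on chromosome 4 (chr4:3951351-3974344), 3 that of 35145 bases on chromosome 5 and 2 lay in AT1G33660.

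Loci with organelle copies owed most of their FPKM to 1 locus. Of 308 loci searched, 14 had a near-identical copy in an organelle genome, 5 in that of the chloroplast and 9 in that of the mitochondrion. These 14 loci held 37.1% of the FPKM of all the loci in air and 23.4% in ethylene, most of it in XLOC_008405. Without that locus, the other 13 held 3.07% of the remaining FPKM in air and 8.96% in ethylene. All 9 with a mitochondrial copy lay on chromosome 2. XLOC_013961, 98.2% identical to the chloroplast gene ndhB, which encodes a subunit of the NADH dehydrogenase-like complex, stood at 1802 FPKM in air and at 3252 in ethylene. It was not called. The authors' test called 4 of the 12 tested loci with an organelle copy, 1 higher and 3 lower. Over all tested entries it called 11.3%, with 4.81% higher and 6.46% lower. Apart from XLOC_008405, these calls were of loci listed at 0 in 1 condition, and 25.1% of all such tested entries were called. Loci this few cannot show a difference from those shares.

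By chromosome, the median log2 difference was -0.06, 0.22, -0.15, 0.17 and -0.13 on chromosomes 1 to 5. Without loci listed at 0 in 1 condition it was 0.03, 0.79, 0.04, 0.18 and -0.08, which turned the sign on chromosomes 1 and 3. Loci higher and lower in ethylene numbered 40 and 42 on chromosome 1, 27 and 24 on chromosome 2, 22 and 26 on chromosome 3, 21 and 17 on chromosome 4, and 32 and 43 on chromosome 5. Calls numbered 7 of 80 tested loci on chromosome 1, 7 of 50 on chromosome 2, 2 of 48 on chromosome 3, 3 of 37 on chromosome 4 and 8 of 75 on chromosome 5. Among tested entries naming a gene, the share called ran from 10.8% on chromosome 3 to 11.8% on chromosome 2. No test of a difference between chromosomes could be made over samples.

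Summed FPKM gave another picture than the counts of loci. On chromosome 2 the sum was 26622 in air and 82453 in ethylene, and on chromosome 5 it was 83088 in air and 3813 in ethylene. Without the loci of 75 bases, the sums were 4203 and 4817 on chromosome 2, and 12466 and 3813 on chromosome 5. Chromosome 2 held 4 loci of 75 bases above 0 in ethylene only and 2 in air only, and chromosome 5 held 0 and 6. The resolved fragments were 472 in air and 382 in ethylene on chromosome 2, and 676 and 516 on chromosome 5. These numbers are not scaled for the unequal worth of a fragment, and they were lower in ethylene on all 5 chromosomes.

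**Figure D5:**
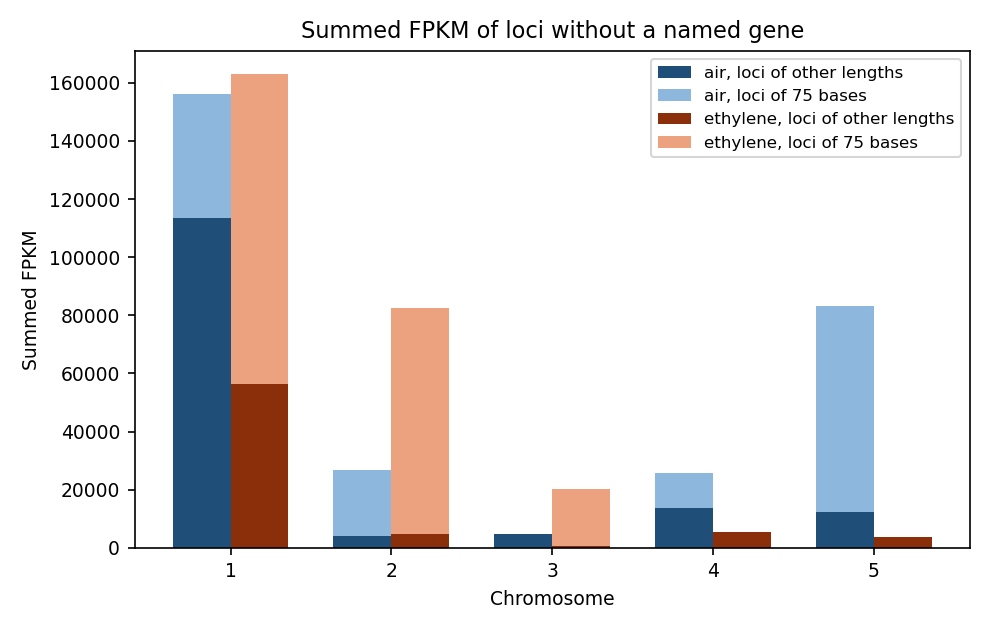
Bars give the summed FPKM of the loci on chromosomes 1 to 5 in air (blue) and ethylene (orange), with loci of 75 bases in the light shade. The light shade makes up most of the ethylene bar on chromosome 2, where the sum drops from 82453 to 4817 without it, and most of the air bar on chromosome 5, where it drops from 83088 to 12466.

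Some loci lay close together. Allowing gaps of up to 1000 bases, 75 of the 317 distinct spans fell into 31 clusters, and the largest had 8 loci between positions 16983246 and 16985934 of chromosome 2. In that cluster 3 loci were higher in ethylene and 5 lower, and 1, XLOC_013537, was called. Another cluster, at positions 13502307 to 13504173 of chromosome 2, held 4 loci and ended with XLOC_013970. Its loci were evenly divided in direction, with 2 higher in ethylene and 2 lower.

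Spans shared with a named gene were held by 17 loci. At positions 3467843 to 3471439 of chromosome 5, XLOC_026332, XLOC_026333, XLOC_026334 and XLOC_026335 had the same span as entries naming AT5G10970. XLOC_026334 stood at 7424 FPKM in air and at 1200 in ethylene, with a q of 0.771 in the authors' deposited table by Cuffdiff with Benjamini-Hochberg adjustment. The 4 loci held 99.9% of the summed FPKM of that span in air and 99.2% in ethylene. The length of the span is not the length of such an entry's transcript, so its fragments cannot be recovered in the same way.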

How the data were processed

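The deposited FPKM values came from the authors' Cuffdiff comparison of 2 air and 2 ethylene libraries, pooled to 1 value per condition, per the file headers. Deposited p-values, q-values and the test statistic, a score without fixed range, are the authors' too. Per the submitters' processing notes, TopHat2 2.0.9, Cuffdiff 2.2.1 and TAIR10 were used, with assembly, annotation and strand settings not given in the sources used here. Library depth is unknown from the table, and no interval needing it is given. Unused columns of per-sample values numbered 0.

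Loci and lists were chosen with earlier results of these data known. A locus is called at a deposited q of 0.05 or less. Loci named in the text were to be all calls, those of highest FPKM in each length class and chromosome, the largest uncalled differences, those beside the length limits and those listed at 0 in 1 condition and at 100 FPKM or more in the other; XLOC_008407, XLOC_020656, XLOC_025768, XLOC_033215, XLOC_033216 and the cluster and shared-span loci outside that rule were chosen after their values were seen. Some loci that this rule names are not reported here. Locus starts count from 0 and 1 was added. Strand was inferred from the order of entries, where a start falling back by over 50000 bases began a new run on a chromosome. Of named single-gene entries, 97.7% lay on the plus strand in the first run and 97.9% on the minus strand in the second. The third run held the 234 loci taken as strandless. Overlap with RefSeq TAIR10.1 used 27854 of 27855 named single-gene entries lying on their own gene as the check of build. Copies were found with BLAST 2.17.0, e-value 1e-05, for loci of up to 3000 bases.

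Fragment numbers are value divided by FPKM of 1 fragment at that length, split into whole numbers of 2 units. The tolerance was 0.001 or 2e-05 of the value, whichever was larger. The second unit was searched for on the lowest of the same values that were then split. The fragment mean of 200 and SD of 80 bases are default settings of Cuffdiff. The shortest fragment was searched from 50 to 75 bases, and the longest fragment (440 bases) and the limit of 120 weighted fragments were also set after the data were seen. Code ran in Python 3.11.15 with pandas 2.3.3, numpy 2.4.6, scipy 1.17.1, Biopython 1.88 and matplotlib 3.10.9, and was tested on simulated data. Alternatives covered the q threshold, scale of p, pseudocount, filters, scaling, length limits and removal of single loci.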

Additional observations from a re-analysis of the deposited data

How the results depend on the processing

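No paired analysis was possible because each condition has 1 pooled value; leaving out each replicate in turn was not run for the same reason. Of 80 combinations of result and alternative, 55 stayed within the limit set and 25 moved; that limit was 1.5 times a count, 0.1 on the log2 scale or 1 percentage point of a share. Alternatives without loci listed at 0, without 1-unit loci, without organelle copies and without 75-base loci were chosen after seeing the data. Where a value moved through a removal or another length limit, fewer or other loci entered; for the rest the cause was not tested. The 27 calls (18 higher, 9 lower) became 48 (30 and 18) when the deposited statistic, where it was a number, was read as a standard normal value. They became 4 (2 and 2) without loci listed at 0 in 1 condition. Without loci of 1 unit only, 9 were higher. The median log2 difference under 100 bases was -12.70 with a pseudocount of 0.1 FPKM, -6.08 with 10, 0.47 without loci listed at 0 and -1.07 with limits of 80 and 300 bases. At 100 to 600 bases it was 0.10 without loci listed at 0, which turned its sign, and -0.38 with the other limits; over 600 bases it was 0.0039 with those limits. On chromosome 2 it was 0.088 with a pseudocount of 10, 0.47 over tested loci and 0.79 without loci listed at 0; on chromosomes 1 and 3 it was 0.034 and 0.041 without them, which turned both signs, and on chromosome 4 it was 0.059 with a pseudocount of 10. The share of all FPKM held by the loci, 24.0% for air and 22.8% for ethylene, became 17.02% and 19.9% without the highest locus, 15.6% and 14.2% without the 5 highest, and 13.7% and 7.08% without loci of 75 bases. Few fragments limit single loci: a resolved locus held a median of 14.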
